A study of Mus musculus with 10 samples.

Results

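The genes of organic ion carriers, bile salt carriers and ATP-binding cassette (ABC) proteins were followed in the liver of mice with and without Nr1d1, which encodes the circadian repressor Rev-erb alpha. Members were taken by gene symbol, as families Slc10a, Slc22a, Slc47a and Slco of the solute carriers and Abca to Abcg of the ABC proteins. They came to 94 of the 19933 genes tested, each read from its brightest probe set. Of these, 44 belonged to the families that mostly take up solutes (Slc10a, Slc22a, Slco) and 43 to families that mostly export them or move lipid (Slc47a, Abca, Abcb, Abcc, Abcg). The remaining 7 were 3 Abcd genes of peroxisomes and lysosomes and 4 Abce and Abcf genes, whose products act in translation and transport nothing.

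Hepatocytes take bile salts, hormones and drugs from sinusoidal blood through carriers such as NTCP (Slc10a1) and the organic anion transporting polypeptides (Slco genes). They pump them into bile with ABC proteins of the canalicular membrane, of which BSEP (Abcb11) carries bile salts, Abcb4 phospholipid, Abcc2 conjugates, and Abcg5 with Abcg8 sterols. Export back to blood through Abcc3, Abcc4 and the partner pair Slc51a and Slc51b is known to rise when bile flow is blocked. Many of these genes are controlled by the bile acid receptor FXR (Nr1h4) and the xenobiotic receptors PXR (Nr1i2) and CAR (Nr1i3).

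Livers of 5 wild-type (WT) mice and 5 Nr1d1-/- (KO) mice were each hybridized to an Affymetrix Mouse Gene 1.0 ST array, 1 mouse per array. All were C57Bl/6 males of 10 to 12 weeks on normal chow and a 12 h light and 12 h dark cycle, killed at ZT10, which is 10 h after lights on. The WT mice were purchased, and the KO line had been backcrossed for at least 7 generations, so genotype and origin of the mice cannot be told apart. Which exons the KO allele lacks is unknown here. Values below are log2 of the deposited normalized intensity, differences are KO minus WT on that scale, and p-values are from limma with Benjamini-Hochberg adjustment over all 19933 genes. A gene was called changed at an adjusted p under 0.05. At an unadjusted p under 0.05, 1787 of the 19933 genes were higher in KO and 1674 lower. Counts at that threshold below are to be read beside these.

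The single Nr1d1 probe set read 10.00, 9.80, 9.60, 9.85 and 9.64 in WT and 9.29, 9.77, 10.54, 9.95 and 10.04 in KO. It was not lower in KO (difference 0.14, SE 0.18, limma adjusted p = 0.803), and it is unknown here whether it covers the deleted part, so it checks nothing. The labelled tissue was borne out by its markers, since the mean of 7 hepatocyte genes lay between 13.75 and 13.83 on every array. None of the 7 changed by limma, and 0 had an unadjusted p under 0.05. Whether their signal was limited by the upper end of the scale was not tested. Lower quartiles of the arrays lay between 6.00 and 6.11. The table has no detection calls, and 17 of the 94 members read below that quartile on every array, so that expression in liver is not shown for them. Levels of different probe sets do not rank the amounts of their transcripts. WT replicate 1 and KO replicates 4 and 5 had the widest interquartile ranges, at 2.96 to 2.99, and calls lost without them are given with both values. In whole liver, fewer cells of a type and less RNA per cell cannot be told apart.

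Of the 94 members, 9 changed, or 9.57%, against 5.61% of all genes. The members that rose were the bile salt pump gene Abcb11, the carrier genes Slc22a15 and Slc22a4, and the lysosomal Abcd4, 4 in all against 3.17% of all genes. The members that fell were Slco1a1, Slco2a1, Abcb1b, Abca8a and Abcb10, 5 in all against 2.44% of all genes. Differences ran from -0.68 to 0.43, with a median of 0.00 over the members and 0.01 over all genes. Signs were even, with 47 members above and 47 below 0. The median size among the 9 changed members was 0.43. KO and WT arrays did not overlap in 12 members, 6 of them higher and 6 lower, while over all genes this held for 7.00%, of which 3.99% were higher and 3.02% lower. The 12 were the 9 changed genes together with Abcg2, Slc22a30 and Slc22a18, of which Slc22a18 was picked with its values in view.

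**Figure D1:**
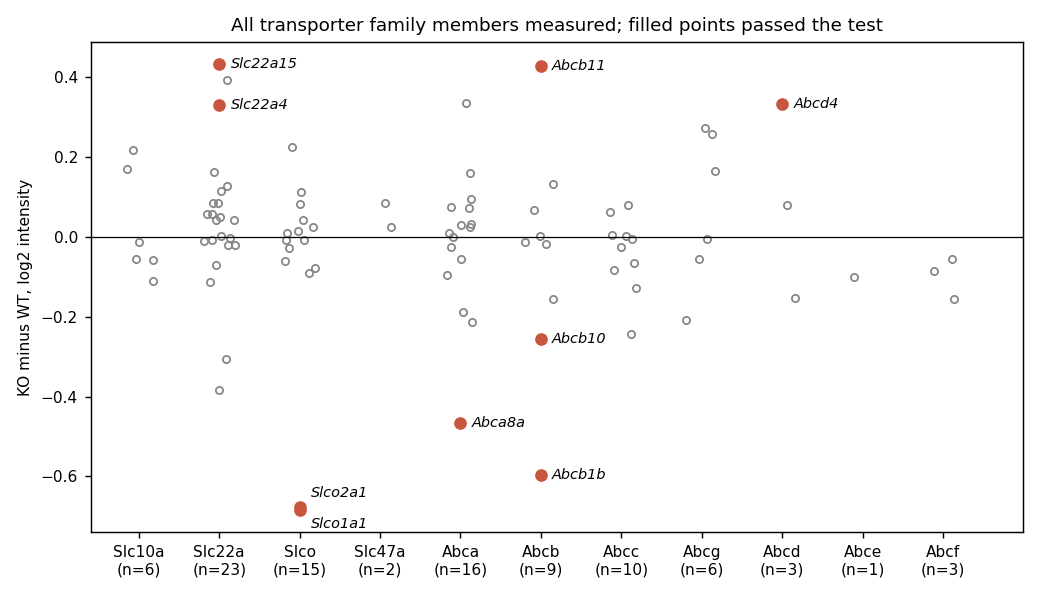
Difference between KO and WT in log2 intensity (vertical axis) for each of the 94 measured genes, grouped by family with the number of genes under each name. Filled, named points are the 9 genes with an adjusted p under 0.05, and open points are the rest. The changed genes lie on both sides of 0, from -0.68 for Slco1a1 to 0.43 for Slc22a15.

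The uptake carriers of the sinusoidal membrane did not move together. Slco1a1, an organic anion carrier that is more abundant in male than in female mouse liver, read 12.45, 12.31, 12.32, 12.49 and 12.50 in WT livers. In KO livers it read 11.79, 11.69, 11.67, 11.65 and 11.85. Every KO liver lay below every WT liver, and the spread within each genotype was small beside the gap. The mean went from 12.41 ± 0.091 to 11.73 ± 0.087 (SD, n = 5 each), which is 1.61-fold lower in KO (limma difference -0.68, SE 0.058, adjusted p = 3.17e-05).

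Slc10a1, the main sodium-dependent bile salt carrier, read 13.46, 13.44, 13.46, 13.50 and 13.49 in WT and 13.44, 13.49, 13.49, 13.43 and 13.43 in KO. The groups overlapped fully, and the 95% confidence interval of the difference was -0.10 to 0.07 (limma adjusted p = 0.932). Only 42 of all genes tested had a higher mean intensity than Slc10a1, and 99.2% had a larger pooled SD. Whether its signal was limited by the upper end of the scale was not tested.

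Slco1b2, which carries bilirubin conjugates and many drugs, read 12.38 to 12.51 in WT and 12.44 to 12.58 in KO. Its difference was 0.08 with an interval of -0.03 to 0.19. Slco2b1, a carrier of steroid sulfates, differed by -0.01 with an interval of -0.11 to 0.10. Slco1a4, a relative of Slco1a1 that is more abundant in female liver and carries bile salts and digoxin, varied too much between mice for a small change to show. Its difference was 0.23 with an interval of -0.34 to 0.79 (limma adjusted p = 0.775).

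The organic anion carrier Slc22a7, known for the exchange of prostaglandins and nucleotides, read 9.23, 9.25, 8.68, 9.13 and 9.21 in WT. It read 8.90, 8.55, 9.0, 8.72 and 8.80 in KO. WT replicate 3 lay among the KO livers, while the other 4 WT livers lay above all of them. The difference was -0.31 (SE 0.11, limma adjusted p = 0.161), and without WT replicate 3 it was -0.41 with an adjusted p of 0.0153. The carnitine carrier Slc22a5 differed by -0.02 with a wide interval of -0.41 to 0.37. Over the 7 measured uptake genes of the hepatocyte list, 1 fell and 6 did not pass, with a median difference of -0.01.

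Outside that list, Slco2a1, which takes up prostaglandins, fell as far as Slco1a1. It read 11.32, 11.11, 11.37, 11.21 and 11.38 in WT and 10.76, 10.65, 10.53, 10.47 and 10.61 in KO, with no overlap. The mean went from 11.28 ± 0.11 to 10.60 ± 0.11 (SD, n = 5 each), 1.60-fold lower in KO (limma difference -0.68, SE 0.068, adjusted p = 0.000107). Vascular endothelium also expresses this carrier. Of the 7 endothelial markers, 0 changed by limma and 2 were higher at an unadjusted p under 0.05. Differences ran from -0.14 for Lyve1 to 0.21 for Clec4g, and 6 of 7 were above 0. Their log2 intensities summed to 64.2 to 66.7 over WT arrays and 64.7 to 67.3 over KO arrays. Their part in the fall of Slco2a1 was not tested.

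Of 15 Slco genes, Slco1a1 and Slco2a1 fell and 13 did not pass. None of the 6 measured Slc10a genes changed by limma over all genes, with 2 higher at an unadjusted p under 0.05. Among them Slc10a5, a relative of Slc10a1 found in liver, differed by -0.06 with an interval of -0.19 to 0.07.

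Of 23 Slc22a genes, 2 rose and 21 did not pass. Slc22a15, a carrier of zwitterions, read 7.80, 7.80, 7.49, 7.92 and 7.99 in WT and 8.56, 8.08, 8.25, 8.27 and 8.02 in KO. The lowest KO liver was just above the highest WT liver. It was 1.35-fold higher in KO (limma difference 0.43, SE 0.11, adjusted p = 0.0358). The call was lost without any 1 of 6 arrays (WT replicates 1, 2 and 3, KO replicates 1, 3 and 4, reaching 0.0834), and when the 3 arrays of widest interquartile range were left out together (0.112).

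Slc22a4, the ergothioneine carrier, read 7.93, 7.97, 7.84, 8.25 and 8.18 in WT and 8.25, 8.31, 8.54, 8.36 and 8.37 in KO. WT replicate 4 and KO replicate 1 nearly met. It was 1.26-fold higher in KO (limma difference 0.33, SE 0.083, adjusted p = 0.0352). That call did not hold without any 1 of 7 arrays (WT replicates 1, 2 and 3, KO replicates 2 to 5, reaching 0.0850) or with the 3 widest arrays left out (0.206). It was also lost with arrays centred on their medians (0.0520) and with array weights (0.0607).

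Slc22a30 and Slc22a27 had the largest differences among members that did not pass. Slc22a30 read 11.74 to 12.08 in WT and 11.19 to 11.73 in KO, a difference of -0.38 (SE 0.11, limma adjusted p = 0.0774). The lowest WT liver was just above the highest KO liver. Slc22a27 differed by 0.39 (adjusted p = 0.114, and 0.0437 without KO replicate 5). Its means of 5.31 in WT and 5.70 in KO were below the lower quartile of every array. Slc22a18 read 11.48 to 11.60 in WT and 11.62 to 11.82 in KO, a difference of 0.16 (limma adjusted p = 0.0819). Another probe set of the array matches Slc22a28, Slc22a29 and Slc22a30 together. That shared probe set differed by -0.29 (limma adjusted p = 0.0710 over probe sets with a symbol). Whether the probe set of Slc22a30 reads that gene alone was not tested.

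**Figure D2:**
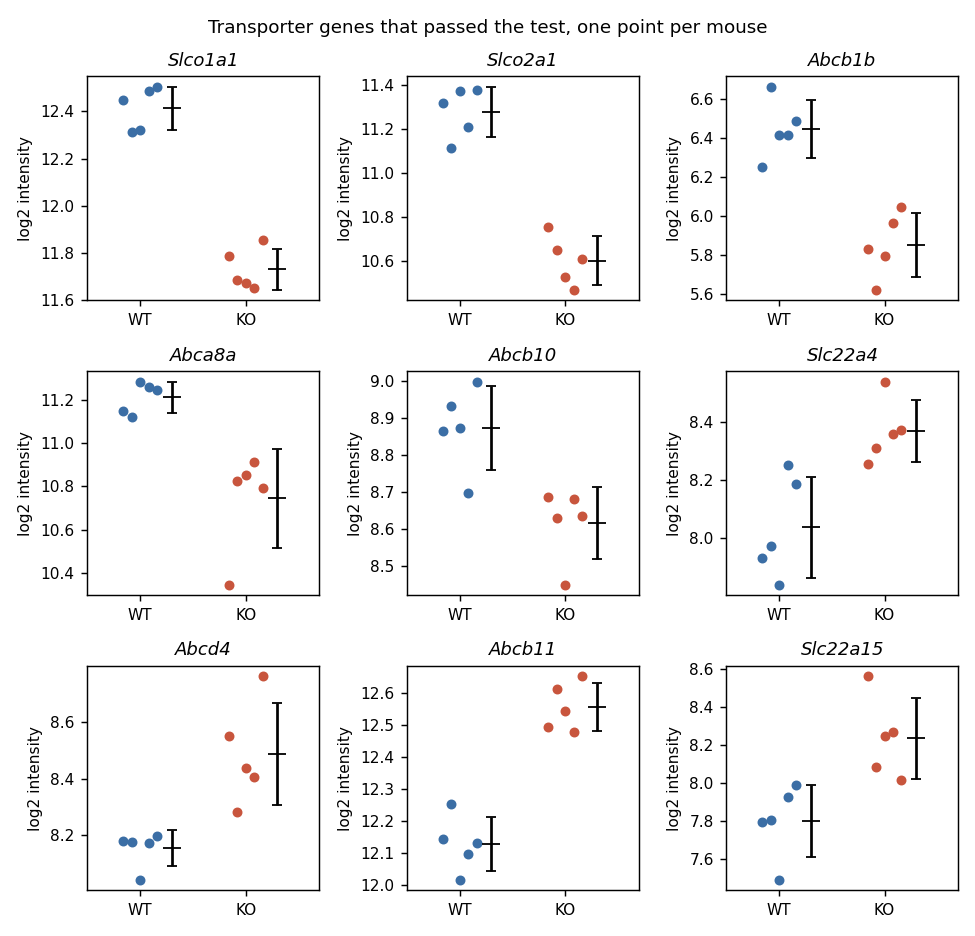
Log2 intensity of the 9 changed genes, with 1 point for each of 5 WT (blue) and 5 KO (red) mice and the mean with SD as a bar beside them. The vertical axes differ between panels and do not start at 0. KO livers lie below WT livers for Slco1a1, Slco2a1, Abcb1b, Abca8a and Abcb10, and above them for Slc22a4, Abcd4, Abcb11 and Slc22a15.

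Among the pumps of the canalicular membrane, the bile salt export pump rose. Abcb11 read 12.14, 12.25, 12.02, 12.10 and 12.13 in WT and 12.49, 12.61, 12.54, 12.48 and 12.65 in KO. All KO livers were above all WT livers. The mean went from 12.13 ± 0.085 to 12.56 ± 0.075 (SD, n = 5 each), 1.34-fold higher in KO (limma difference 0.43, SE 0.054, adjusted p = 0.000566). The call held in all 19 alternatives, with adjusted p-values from 0.000102 to 0.0126.

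Abcb1b, which encodes a P-glycoprotein drug pump, moved the other way. It read 6.25, 6.66, 6.42, 6.42 and 6.49 in WT and 5.83, 5.62, 5.79, 5.96 and 6.05 in KO, with no overlap. The difference was -0.60 (SE 0.088, limma adjusted p = 0.00161), 1.51-fold lower in KO. All 5 WT livers were above the lower quartile of their array, but only 1 of 5 KO livers was. A KO level above background is therefore not shown, and the size of the fall is uncertain. Its close paralog Abcb1a read 7.80 to 8.09 in WT and 7.71 to 7.87 in KO, a difference of -0.16 (adjusted p = 0.225), and signal may be shared between the probe sets.

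The other canalicular genes did not pass. The half-transporter gene Abcg2, which exports urate, porphyrins and drugs, read 10.12, 10.23, 9.81, 10.28 and 10.17 in WT and 10.31, 10.42, 10.29, 10.51 and 10.44 in KO. All KO livers were above all WT livers, though KO replicate 3 and WT replicate 4 nearly met. The difference was 0.27 (SE 0.083, limma adjusted p = 0.0840, and 0.0482 after arrays were quantile normalized again). Abcg8 and Abcg5, whose products pair to export sterols, differed by 0.26 (adjusted p = 0.115) and 0.17 (adjusted p = 0.361). The phospholipid floppase gene Abcb4 differed by 0.13 with an interval of -0.10 to 0.37. Abcc2, which exports glutathione and glucuronide conjugates, differed by 0.01 with an interval of -0.13 to 0.14. Slc47a1, an organic cation exporter, differed by 0.08 with an interval of -0.05 to 0.21.

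The ABC genes of export across the sinusoidal membrane did not pass either. Abcc3 differed by 0.00 with an interval of -0.13 to 0.13, and Abcc6 by 0.06 with an interval of -0.06 to 0.18. Abcc4 read 7.79, 7.56, 7.75, 7.69 and 8.07 in WT and 7.44 to 7.58 in KO. Its difference was -0.24 (limma adjusted p = 0.108, and 0.0479 without WT replicate 2, the WT liver that lay among the KO livers). Abca1, which loads cholesterol onto apolipoprotein A-I, read 11.16 to 11.31 in WT and 10.94 to 11.18 in KO, with WT replicate 4 just under KO replicate 2. The difference was -0.19 (SE 0.053, adjusted p = 0.0608). It passed in 4 of 19 alternatives, of which 2 left out one of those arrays (adjusted p = 0.0472 without WT replicate 4 and 0.0438 without KO replicate 2). The others were a trended, robust variance (0.0386) and log2 of intensity plus 16 (0.0457).

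**Figure D3:**
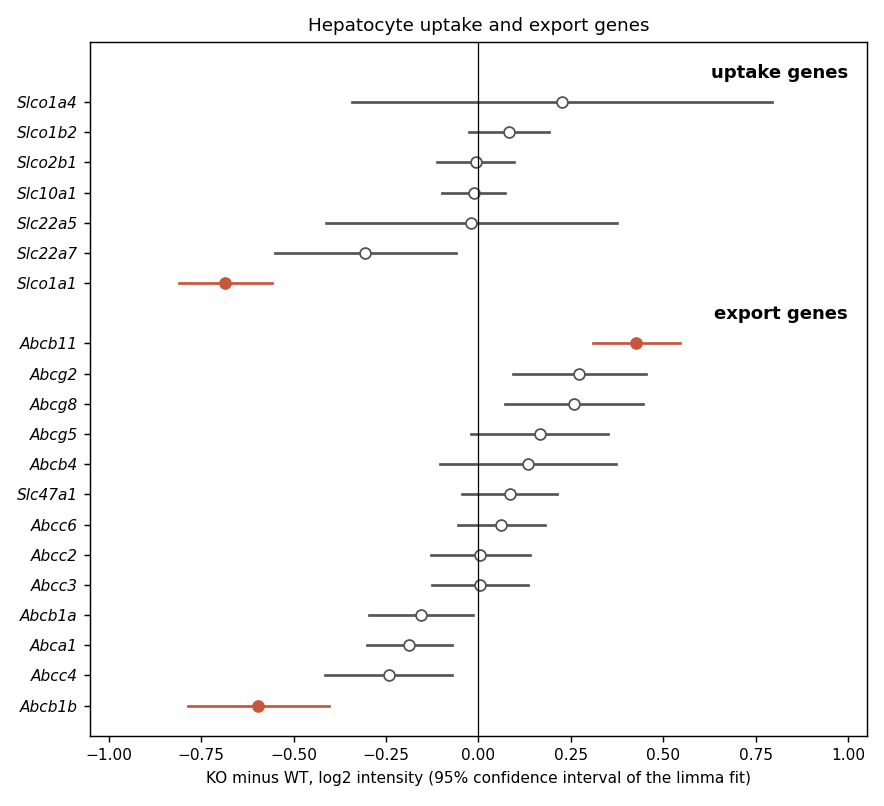
Difference between KO and WT in log2 intensity (horizontal axis) with the 95% confidence interval of the limma fit, for 7 uptake genes and 13 export genes of the hepatocyte. Filled points passed the test. Slco1a1 stands apart at -0.68 among uptake genes, and export genes run from -0.60 for Abcb1b to 0.43 for Abcb11.

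Uptake and export were compared as groups by counts. Of 44 genes in the uptake families, 4 changed (9.09%), 2 higher and 2 lower, with a median difference of 0.01. Of 43 in the export families, 4 changed (9.30%), 1 higher and 3 lower, with a median of 0.00. Neither median moved away from that of all genes, 0.01. Of the 13 export genes of the hepatocyte list, 1 rose, 1 fell and 11 did not pass, with 9 differences above 0 and a median of 0.06, against 2 of 7 above 0 and a median of -0.01 for uptake. The difference between the lists was not tested.

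The promoters of Slco1a1 and Abcb11 are shown because these are the clearest uptake and export changes and because both hold the same receptor half-site, though the genes moved in opposite directions. Rev-erb and ROR receptors bind the half-site AGGTCA after an A- and T-rich stretch. The 250 bases before the start were searched, on both strands, in the 77 members of the RefSeq promoter table (GRCm38.p6). The half-site with a leading T, TAGGTCA, lay in these 2 member promoters, 2.60% of 77, and in 2.55% of the promoters of all 27025 genes in that table. The Slco1a1 sequence is chr6:141946963-141947212 and that of Abcb11 is chr2:69342617-69342866, both on the minus strand and written in the direction of the gene. Capitals mark TAGGTCA only, which reads TGACCTA here because it lies on the opposite strand.
Slco1a1: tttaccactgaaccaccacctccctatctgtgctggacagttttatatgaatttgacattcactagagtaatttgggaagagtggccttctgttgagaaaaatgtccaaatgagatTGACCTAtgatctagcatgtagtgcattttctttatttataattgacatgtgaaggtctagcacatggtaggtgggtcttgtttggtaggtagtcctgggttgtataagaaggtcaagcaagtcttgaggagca
Abcb11: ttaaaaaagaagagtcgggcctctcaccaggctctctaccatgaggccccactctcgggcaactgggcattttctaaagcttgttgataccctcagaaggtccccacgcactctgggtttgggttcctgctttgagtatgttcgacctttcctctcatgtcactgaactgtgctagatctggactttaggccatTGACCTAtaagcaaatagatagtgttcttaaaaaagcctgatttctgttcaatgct

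TAGGTCA began 134 bases before the start in Slco1a1 and 56 bases before it in Abcb11. Nearer the start, the Slco1a1 sequence also holds an AGGTCA without the leading T, left in lower case. The shorter AGGTCA, which has no leading T and so includes those matches, lay in 11 of 77 member promoters (14.3%) and 15.8% of all. The E-box CACGTG, bound by BMAL1 and CLOCK, lay in 7 of 77 member promoters (9.09%) against 6.86% of all. The changed members among those 7 were Slc22a4, which rose, and Abca8a, which fell. In all 15 motifs were searched. Also among them were the half-site variants GGGTCA and its longer form TGGGTCA, which overlap each other, and the TATA box TATAAA. The D-box was searched as TTACGTAA and as TTATGTAA, the HNF1 half-site as GTTAAT and the HNF4 element as TGACCTTTG. The FXR core was searched as GGTCANTGA, and a palindrome as TGANNTCA. The remaining searches were 2 lengths of the inverted repeat and the direct repeat of the half-site, with a spacer of 1 base, and all of these contain it or its core. Shares in member promoters were 16.9% for GGGTCA, 3.90% for TGGGTCA and 14.3% for TATAAA, against 13.1%, 3.73% and 14.3% of all. The palindrome TGANNTCA lay in 6.49% of member promoters and 13.5% of all. For GTTAAT the shares were 6.49% and 7.49%, and for TTATGTAA 1.30% and 0.977%. TTACGTAA, TGACCTTTG, GGTCANTGA and the repeats lay in 0 of 77 member promoters. Their shares of all promoters ran from 0.0296% to 0.840%. A match in these windows is a description of the letters and does not show binding.

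Among ABC genes of lipid handling, Abca8a fell. It belongs to a group of Abca genes linked to cholesterol and phospholipid efflux. It read 11.15, 11.12, 11.28, 11.26 and 11.24 in WT and 10.35, 10.83, 10.85, 10.91 and 10.79 in KO. KO replicate 1 was lowest, and the other 4 KO livers also lay below every WT liver. The difference was -0.47 (SE 0.094, limma adjusted p = 0.0115), 1.38-fold lower in KO. The call held in all 19 alternatives (adjusted p from 0.00221 to 0.0436). The other 15 Abca genes did not pass.

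Abcb10 and Abcd4 sit in inner membranes of the cell. Abcb10, of the inner mitochondrial membrane, where it is tied to heme synthesis, read 8.86, 8.93, 8.87, 8.70 and 9.0 in WT and 8.69, 8.63, 8.45, 8.68 and 8.64 in KO. The lowest WT liver and the highest KO liver nearly met. It fell by 0.26 (SE 0.065, limma adjusted p = 0.0363). The call was lost without any 1 of 8 arrays (WT replicates 1, 2, 3 and 5, KO replicates 2 to 5, reaching 0.0886) and with the 3 widest arrays left out (0.135).

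Abcd4, which works in the export of cobalamin from lysosomes, read 8.18, 8.18, 8.04, 8.17 and 8.20 in WT and 8.55, 8.28, 8.44, 8.40 and 8.76 in KO. KO livers were all higher and also more widely spread. The difference was 0.33 (SE 0.078, limma adjusted p = 0.0256), 1.26-fold higher in KO. The call was lost without WT replicate 3 (0.0673) or KO replicate 1 (0.0600), with median centring (0.0581) and with the 3 widest arrays left out (0.0965). Abcd3, a peroxisomal importer of branched and dicarboxylic acyl-CoA, differed by 0.08 with an interval of -0.07 to 0.24. The 4 Abce and Abcf genes differed by -0.15 to -0.06, and 0 passed in limma or at an unadjusted p under 0.05. None of 10 Abcc or 6 Abcg genes passed in limma. At an unadjusted p under 0.05, 2 Abcc genes were lower, 2 Abcg genes were higher and 1 Abcg gene was lower.

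Several members lie side by side in the genome. In RefSeq order, Abca8b, Abca8a, Abca9, Abca6 and Abca5 follow each other on chromosome 11. Their differences were -0.10, -0.47, -0.21, 0.16 and 0.07, and only Abca8a passed. On chromosome 5, Abcb1a, Abcb1b and Abcb4 differed by -0.16, -0.60 and 0.13, and only Abcb1b passed. On chromosome 11, Slc22a5, Slc22a21 and Slc22a4 differed by -0.02, 0.06 and 0.33, and only Slc22a4 passed. Abcg5 and Abcg8, side by side on chromosome 17, were both above 0 and did not pass. Changes were compared within some rows of neighbours by exact permutation of arrays, adjusted over 6 gene pairs. Adjusted p in that test was 0.0159 for Abcb1b against Abcb1a, 0.0238 for Abca8a against Abca8b and 0.0286 for Slco1a1 against Slco1a4. For Slc22a4 against Slc22a5 it was 0.119. The 6 pairs also held genes that are not neighbours, Slco1a1 against Slco1b2 (0.0159) and Abcb11 against Slc10a1 (0.0159). Each of these pairs held a gene already called changed, so a pair that passed adds no separate support. Other neighbours were not compared. Of the Slco1 genes on chromosome 6, Slco1a1 changed, while Slco1a4, Slco1a5, Slco1a6, Slco1b2 and Slco1c1 did not pass. Slco1a5, Slco1a6 and Slco1c1 read below the lower quartile of every array.

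Of 18 measured regulators and partners of these transporters, 2 rose, 1 fell and 15 did not pass. CAR (Nr1i3), a receptor that induces drug carriers, read 11.77, 11.24, 11.48, 12.19 and 12.14 in WT and 12.18, 12.46, 12.47, 12.41 and 12.38 in KO, a difference of 0.62 (limma adjusted p = 0.0409). WT livers were spread widely, and WT replicate 4 overlapped KO replicate 1. The call was lost in 11 of 19 alternatives, 7 of them with 1 array left out (reaching 0.104), and the adjusted p was 0.214 with the 3 widest arrays left out. Slc51b, a subunit of the basolateral bile salt exporter, read 6.41 to 6.62 in WT and 6.69 to 6.91 in KO, a difference of 0.24 (limma adjusted p = 0.0313) at a low intensity. That call was lost in 8 of 19 alternatives, 5 of them with 1 array left out (reaching 0.0762), and the adjusted p was 0.100 with the 3 widest arrays left out. Its partner subunit Slc51a differed by 0.03 with an interval of -0.12 to 0.18. Cyp7a1, the first enzyme of bile acid synthesis, read 12.86, 12.40, 12.97, 13.25 and 13.08 in WT and 12.48, 12.53, 11.16, 11.90 and 11.84 in KO. WT replicate 2 lay among the KO livers. The gene fell by 0.93 (limma adjusted p = 0.0379), a call lost in 10 of 19 alternatives, 7 of them with 1 array left out (reaching 0.0885). The adjusted p was 0.101 with a trended, robust variance, 0.0713 with array weights and 0.227 with the 3 widest arrays left out. The count of changed genes in this list went to 0 in limma without WT replicate 1, WT replicate 3 or KO replicate 5, where 8, 7 and 6 genes had an unadjusted p under 0.05. It was also 0 with the 3 widest arrays left out, where 3 had. With all arrays, 7 genes of the list were higher and 2 lower at that threshold, beside 1787 and 1674 of the 19933 genes.

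The bile acid receptor FXR (Nr1h4), known to induce Abcb11, read 10.69 to 11.32 in WT and 10.74 to 11.10 in KO. Its difference was -0.14 with an interval of -0.37 to 0.10. Its target gene SHP (Nr0b2) read 10.25, 10.14, 9.80, 9.65 and 9.49 in WT and 9.64, 10.42, 10.42, 10.60 and 10.33 in KO. Apart from KO replicate 1 the KO livers were all higher. The difference was 0.42 (limma adjusted p = 0.255, and 0.0394 without KO replicate 1).

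A few members varied more between mice of a genotype than between genotypes. The 5 with the largest pooled SD within genotypes, chosen after their values were seen, were Slc10a2 (0.590), Abcd2 (0.585), Abca3 (0.569), Slco1a4 (0.507) and Slc22a5 (0.348). At most 1.16% of all genes had a larger pooled SD than any of them. None of the 5 passed in limma, nor at an unadjusted p under 0.05, and their intervals were wide.

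Abca3, which moves phospholipid into lamellar bodies, read 9.47, 10.62, 9.40, 9.29 and 9.36 in WT and 9.64, 9.72, 9.66, 9.78 and 10.99 in KO. WT replicate 2 and KO replicate 5 stood above the rest. Apart from them, the KO livers (9.64 to 9.78) all lay above the WT livers (9.29 to 9.47). The difference was 0.34 with all arrays (limma adjusted p = 0.673). It was 0.58 without WT replicate 2 (0.253) and 0.08 without KO replicate 5 (0.900). Abcd2, a peroxisomal importer of very long chain acyl-CoA, read 8.64, 7.21, 8.59, 8.66 and 9.08 in WT and 8.24, 8.77, 8.31, 8.45 and 7.63 in KO. The same pair of mice, one of each genotype, was lowest for it in its genotype.

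Slc10a2, the bile salt carrier of ileum and bile duct cells, read 8.80, 8.98, 8.74, 7.95 and 8.52 in WT and 8.67, 8.59, 7.34, 8.47 and 9.38 in KO. KO replicate 3 was lowest and KO replicate 5 highest. Of 6 cholangiocyte markers, Sox9 rose (difference 0.62, limma adjusted p = 0.0129) and 5 did not pass. Those 5 differed by -0.11 (Krt7) to 0.11 (Cftr), and of all 6 markers 3 were above and 3 below 0. The log2 intensities of the 6, Sox9 included, summed to 38.5 to 39.2 in WT and 39.1 to 40.2 in KO. Cftr and Tspan8 were under the lower quartile. The part of those cells in the spread of Slc10a2 was not tested.

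Slco1a4 read 11.21, 10.58, 10.60, 11.62 and 11.76 in WT and 11.74, 11.85, 10.70, 11.26 and 11.36 in KO. Each genotype held mice near 10.6 to 10.7 and mice above 11.7. Slc22a5 read 8.89 to 9.08 in WT but 8.45, 8.56, 9.48, 8.85 and 9.44 in KO. Its KO livers lay on both sides of the WT range. A test of this difference in spread was not run.

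**Figure D4:**
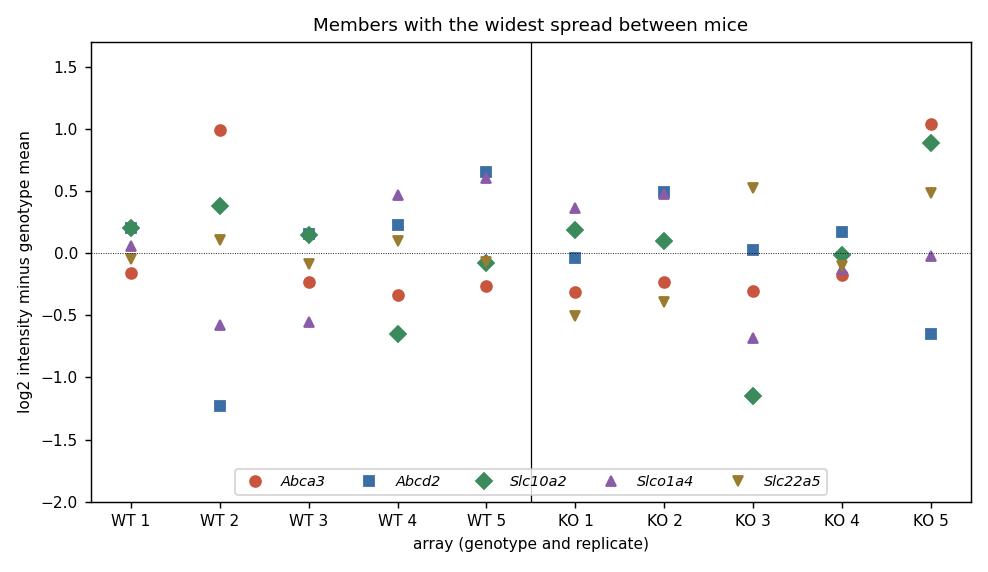
Log2 intensity of 5 genes minus the mean of the genotype (vertical axis), by array (horizontal axis), with a vertical line between WT and KO. Abca3 is high and Abcd2 low in WT replicate 2 and KO replicate 5, and Slc10a2 is low in KO replicate 3.

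The probe sets of the highest mean intensity among members were those of Slc10a1, Abcc2 and Slco1b2. Those of the lowest were Slco6d1, Slc22a19 and Slco6b1, whose means lay between 3.97 and 4.34 in WT and between 3.96 and 4.46 in KO and are not shown to be expressed. Of the other marker lists, 0 of 7 Kupffer cell, 0 of 7 stellate cell, 0 of 5 lymphocyte, 0 of 5 neutrophil and 0 of 5 kidney tubule markers changed in limma. At an unadjusted p under 0.05 there were 0, 1, 1, 0 and 0 of them.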

How the data were processed

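The deposited values are intensities of 27541 probe sets on 10 arrays, normalized by the authors, on a linear scale from 8.93 to 18280. Per the submitters' processing notes, RMA and Partek were used. Filters and versions are unknown here. Here log2 was taken, probe sets with 1 symbol (21631) were kept, and the brightest stood for each gene (19933 genes). KO and WT were compared with limma 3.58.1 (R 4.3.3), lmFit and eBayes, two-sided, without covariates. The fit was tested on simulated data. Named genes were Nr1d1, changed members, 20 measured genes of the hepatocyte lists, the 6 largest differences that did not pass, the 3 brightest and 3 dimmest members, changed regulators, and Nr1h4, Nr0b2, Slc51a and Slc51b. The 5 members of largest spread, Slc10a2 and Abcd2 among them, were added with their values in view. Slc22a18 was described with its values in view as well. It was not among the 41 named genes followed through the alternatives and the search for single arrays that stood apart. Members and lists were chosen with earlier results of these data known. Alternatives were all probe sets, probe set means, a filter on dim genes, median centring, repeated quantile normalization, a trended and robust variance, array weights, log2 of intensity plus 16, and leaving out arrays. The number of arrays limits the precision. Promoters and gene order are from RefSeq, GRCm38.p6.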

Additional observations from a re-analysis of the deposited data

Results flagged for a closer look

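Single arrays stood apart from the other 4 of their genotype in 10 of 82 gene and genotype groups tested, where chance gives about 1 in 20. The genes tested include some picked for their spread, Abca3 and Abcd2 among them, so the share cannot be set against chance. Readings are log2 intensities. Abca3 was high in WT replicate 2 (10.62, others up to 9.47) and in KO replicate 5 (10.99, others up to 9.78). Abcd2 was low in WT replicate 2 (7.21, others from 8.59).

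WT replicate 3 was low for Abcd4 (8.04, others from 8.17), Slc22a7 (8.68, others from 9.13) and Slc51b (6.41, others from 6.57). KO replicate 1 was low for Abca8a (10.35, others from 10.79) and Nr0b2 (9.64, others from 10.33). KO replicate 3 was low for Abcb10 (8.45, others from 8.63). WT replicate 4 was high for Slc47a1 (11.52, others up to 11.34).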

How the results depend on the processing

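Under 19 alternatives, Slco1a1, Slco2a1, Abcb11, Abcb1b and Abca8a kept direction and call wherever they were tested (Abcb1b was left out by the filter on dim genes). Without the 3 arrays of widest interquartile range, with fewer arrays in the fit, 527 genes changed against 1119. Members that rose were then 1 against 4, changed genes of the uptake families 2 against 4, and changed regulators and partners 0 against 3 (limma, 3 at an unadjusted p under 0.05). With median centring, 2 members rose and 1 regulator changed, and with array weights 1 regulator changed. The cause of these moves was not tested. With single arrays left out, 1 to 4 members rose, 2 to 4 genes of the uptake families changed and 0 to 3 regulators changed. Members that fell numbered 4 to 7, and changed genes among all genes tested 805 to 1248. Of 773 values of 41 named genes, 59 lost and 9 gained a call, and 0 calls reversed. Differences that passed in neither fit changed sign in 33 values. No paired analysis was possible because replicate numbers follow accession order and pair no mice. The table has no detection calls, which limits dim genes.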

Other observations

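Some probe sets match several symbols and were left out of the tests. The one shared by Slc22a28, Slc22a29 and Slc22a30 read 12.17, 12.19, 12.26, 12.11 and 12.22 in WT and 11.97, 12.11, 11.67, 12.03 and 11.70 in KO. Its difference was -0.29 (SE 0.084, limma adjusted p = 0.0710 over probe sets with a symbol). The one shared by Slc10a3 and Gm44504 differed by -0.04, and the one shared by Slc10a4 and Slc10a4l by -0.02.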
